A study of Drosophila melanogaster with 6 samples.

Results

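The genes described here are 10 components of the apoptosis machinery of Drosophila, namely rpr, hid, grim, skl, Diap1, Dronc, Dark, Drice, Dcp-1 and egr. They were taken by name, as every probe set that the array annotation pairs with one of these genes and with no other. The annotation used here names 8 probe sets for 6 of them, among 18952 probe sets on the array. For rpr, hid, Diap1 and Drice it names none, also under their older symbols, and those 4 genes were not analysed here. Of the 8 probe sets 7, from 5 genes, passed the filter on dim signals and entered the test, as did 11477 probe sets in all.

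The arrays, 1-colour oligonucleotide arrays with biotin-labelled total RNA, compared ovaries of 2 genotypes with 3 samples each. One genotype is mutant for bam through the allele bam[delta86], and the other is a double mutant of stwl and bam whose stwl allele the labels do not name. Both groups carry a bam mutation, so neither is wild type, and an ovary without bam, a gene that germline stem cell daughters need to differentiate, fills with undifferentiated germ cells. Stonewall, the product of stwl, is a chromatin-associated protein that maintains germline stem cells. The labels name no age and no treatment, and give ovary as the source while the series text speaks of germ cells, so how much somatic tissue was included is not known here. The labels do not tie the samples to separate crosses or dissections, and a p-value here therefore speaks only of how much these samples varied, possibly for technical reasons.

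Apoptosis in flies is set off by the proteins of the RHG group, Reaper, Hid, Grim and Sickle, which bind the inhibitor Diap1 and so release caspases from it. The initiator caspase Dronc is activated on a scaffold formed by Dark, the fly relative of Apaf-1, and then cleaves the effector caspases Drice and Dcp-1. Eiger, encoded by egr, is the fly's tumour necrosis factor ligand and can reach the same machinery through the kinase JNK. In the ovary this machinery removes damaged or starved egg chambers, for which Dcp-1 is needed, while the nurse cells that die late in oogenesis depend on it little.

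The median intensity per array was 26.1 to 39.8 and the background, taken from control probe sets for sequences that flies lack, from 13.5 to 38.8. The germ cell genes nanos, aub and piwi were far above background in both genotypes, with log2 means of 10.46, 11.05 and 11.25 in bam, and the summed level of 9 germ cell markers overlapped between the genotypes, at 10400 to 11000 in bam and 9980 to 11400 in stwl bam. Single members of that list moved both ways: piwi, tud and bam rose, ovo and otu fell, and 4 did not pass. Among those 4, Sxl was at -0.23 on the probe set used. Another Sxl probe set was called higher, at 1.02 ± 0.20 (SE), with a limma adjusted p of 0.00819. The stwl probe set differed by -0.31 ± 0.24 (SE) on the log2 scale with a limma adjusted p of 0.396, and since the part of the transcript it covers is not known here it does not check the labels. The bam probe set was above background on all 6 arrays. Its intensities were 87.5, 103.2 and 99.0 in bam and 384.4, 174.9 and 287.0 in stwl bam, a rise of 1.29 ± 0.26 (limma adjusted p = 0.00935), and it does not check the labels for the same reason. The 5' to 3' signal ratios of control transcripts moved with genotype and were lower in bam. That of the actin control was 0.129 to 0.183 in bam and 0.524 to 0.675 in stwl bam, and those of eIF-4a and GAPDH did not overlap either. Whether RNA quality or labelling set these ratios was not tested. Muscle markers moved too, with a summed level of 13000 to 13900 in bam against 19100 to 24700 in stwl bam and 5 of 7 genes higher. That sum is weighted to bright genes such as Tm2, which rose by 0.33 ± 0.08 (SE). The genes up and Act88F rose by 3.23 ± 0.13 and 4.14 ± 0.59, the latter from below background on 2 bam arrays. Mlc2 and bt did not pass. Haemocyte (blood cell) markers moved as well, with a summed level of 7730 to 8100 in bam against 4450 to 5290 in stwl bam and 6 of 10 lower. Among all tested genes 11.1% were higher and 13.0% lower. A list of fat body immune genes summed to 612 to 830 in bam and 3090 to 6580 in stwl bam, with 3 of 5 higher (Drs, BomS2 and BomBc2) and Def lower. Of 8 other fat body genes apolpp, Tsf1 and Obp99c rose, by 1.47 ± 0.23, 3.21 ± 0.35 and 3.51 ± 0.60 (SE), and 5 did not pass. The summed level of the 8 overlapped. Yp1, the brightest of them with log2 means of 13.23 in bam and 12.22 in stwl bam, weighs heavily in that sum. Ovarian somatic markers summed to 2450 to 2770 against 1810 to 2210, and of 6 tested eya fell. The part of these differences in the results below was not tested.

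Among the 7 tested probe sets of cell death genes, skl rose in stwl bam ovaries, 1 probe set each of Dark and egr fell, and the other 4 did not pass. The limma threshold was an adjusted p of 0.05 over all tested probe sets. That is 1 of 7 higher, where 11.2% of all tested probe sets were called higher, and 2 of 7 lower, where 12% were called lower. For 4 of the 7 the genotypes were fully separate, without overlap between their arrays, beside 41.1% of all tested probe sets. The median change was -0.18 on the log2 scale, against -0.03 over all tested probe sets. With ovaries measured in bulk, a change in RNA per cell and a change in the number of cells that hold the RNA cannot be told apart.

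**Figure D1:**
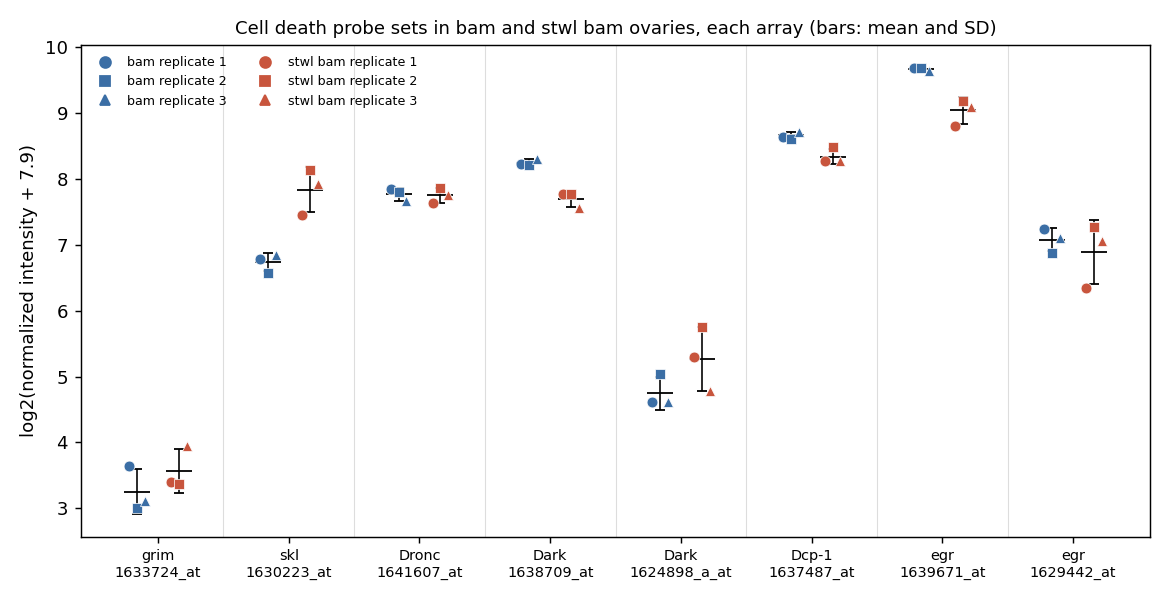
Each point is 1 array, blue for bam and red for stwl bam, and the vertical axis is the log2 of the quantile-normalized intensity plus 7.9; bars give the mean and SD of the 3 arrays. The skl arrays of stwl bam all lie above those of bam, the first egr and the first Dark probe set lie lower in stwl bam, and grim lies at the bottom in both genotypes.

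Of the RHG death activators, skl and grim could be measured. The deposited skl intensities were 86.4, 92.8 and 100.1 on the bam arrays and 176.8, 276.6 and 235.1 on the stwl bam arrays. Every stwl bam array was higher than every bam array, and all 6 were above background. After normalization the log2 level averaged 6.74 ± 0.14 (SD, n = 3) for bam and 7.84 ± 0.34 for stwl bam. The change was 1.10 ± 0.20 (SE), or 2.14-fold, with a 95% interval from 0.65 to 1.55 and a limma adjusted p of 0.0059. A rise at least as large was seen in 3.83% of all tested probe sets. Leaving out single arrays moved the change between 0.95 and 1.29 and never ended the call, while a test without pooling across probe sets did (adjusted p = 0.0558).

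The grim signal was at background. Its intensities were 3.8, 0.1 and 0.5 in bam and 2.0, 2.9 and 8.8 in stwl bam, below the background of the array on all 6 arrays. No fold can be given, and the probe set was not tested.

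The RHG genes lie next to each other on chromosome arm 3L, and in the RefSeq annotation 17 genes, the 4 of them and the noncoding ones included, fall within the stretch that hid and skl bound. Of these, 6 had a probe set and only that of skl passed the filter. CG7320, CheA75a and CG5103 lay below background on all arrays of both genotypes, and CG13700 on all bam arrays and 2 of the 3 stwl bam arrays. The measured change in this stretch was thus that of skl, and its neighbours gave no signal with which it could be compared.

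Over the 6 arrays, the genes whose log2 levels followed skl most closely among 6008 probe sets of named genes were Vps37B, dind and fwe, with Pearson r of 0.9968, 0.9949 and 0.9948. Their changes were 0.41, 1.45 and 1.17. These r values are a description, since the arrays fall into 2 genotypes and any gene that differs between them alike scores high.

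For the apoptosome, Dronc and Dark gave different pictures. Dronc, the initiator caspase, had intensities of 197.4, 219.2 and 195.1 in bam and 200.6, 230.9 and 210.7 in stwl bam. The genotypes overlapped, and the change was -0.02 ± 0.13 (SE) with a limma adjusted p of 0.938. The 95% interval of that change ran from -0.31 to 0.28, so changes of a size like that of skl lie outside it.

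Dark, the scaffold that activates Dronc, had 1 bright and 1 dim probe set. On probe set 1638709_at the intensities were 265.4, 297.2 and 318.4 in bam and 217.0, 217.5 and 183.6 in stwl bam, all well above background and not overlapping. The mean log2 level was 8.25 ± 0.05 (SD, n = 3) for bam and 7.70 ± 0.12 for stwl bam. It fell by 0.55 ± 0.12 (SE), limma adjusted p = 0.0141. On probe set 1624898_a_at they were 13.9, 30.2 and 12.2 in bam and 26.8, 51.0 and 23.4 in stwl bam. This probe set lay under the background on every bam array and on 1 stwl bam array. The genotypes overlapped and it did not pass, with a limma adjusted p of 0.321, or 0.713 with arrays below background set to it, so no direction is given.

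Which parts of the Dark transcripts the probe sets cover is not known here. The call of the brighter probe set was lost without bam replicate 1 (limma adjusted p = 0.0547) or bam replicate 3 (0.0568), and with each array centred on its median over all probe sets (0.0861). The closest patterns to it were those of gammaCOP, eIF3b and CysRS, with r of 0.9975, 0.9974 and 0.9969 over the 6 arrays and changes of -0.41, -0.31 and -0.50.

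Of the effector caspases, Dcp-1 could be measured. Its intensities were 357.1, 393.8 and 432.2 in bam and 306.9, 355.9 and 301.4 in stwl bam. In deposited units the highest stwl bam array lay just under the lowest bam array, and after normalization the genotypes did not overlap either. The log2 level averaged 8.66 ± 0.06 (SD, n = 3) for bam and 8.34 ± 0.12 for stwl bam, which gives a change of -0.32 ± 0.11 (SE) with a 95% interval from -0.57 to -0.06. It did not pass, with a limma adjusted p of 0.0725. It passed with array weights (0.0459) and with arrays centred on the median of the tested probe sets (0.0435), an alternative chosen after seeing the data.

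The tumour necrosis factor ligand gene egr fell on its brighter probe set. On probe set 1639671_at the intensities were 750.4, 837.3 and 816.4 in bam and 447.8, 577.2 and 541.3 in stwl bam. Every stwl bam array was lower than every bam array. The mean log2 level was 9.67 ± 0.03 (SD, n = 3) for bam and 9.04 ± 0.20 for stwl bam. It fell by 0.64 ± 0.11 (SE), which is 1.55-fold, with a limma adjusted p of 0.00611. A fall at least as large was seen in 10.7% of all tested probe sets. Leaving out single arrays gave changes between -0.71 and -0.52 and never ended the call, and the test without pooling gave an adjusted p of 0.0509.

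On the second egr probe set, 1629442_at, the intensities were 123.9, 112.2 and 125.8 in bam and 79.0, 153.3 and 131.2 in stwl bam. The stwl bam arrays lay on both sides of the bam arrays, with replicate 1 lowest. The change was -0.18 ± 0.25 (SE), with a limma adjusted p of 0.642 and a 95% interval from -0.76 to 0.39 that includes the change of the brighter probe set. The difference between the 2 egr probe sets averaged 2.60 ± 0.19 (SD, n = 3) for bam and 2.15 ± 0.29 for stwl bam on the log2 scale (exact permutation test, two-sided, p = 0.2). With 20 regroupings the smallest p that test can give is 0.1, so it cannot decide whether the probe sets changed alike. CRAT, Fer3HCH and Cyp4d8 followed the brighter probe set most closely, with r of 0.9981, 0.9971 and 0.9965 and changes of -0.47, -0.41 and -1.88. Fer3HCH did not pass the test (limma adjusted p = 0.305).

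**Figure D2:**
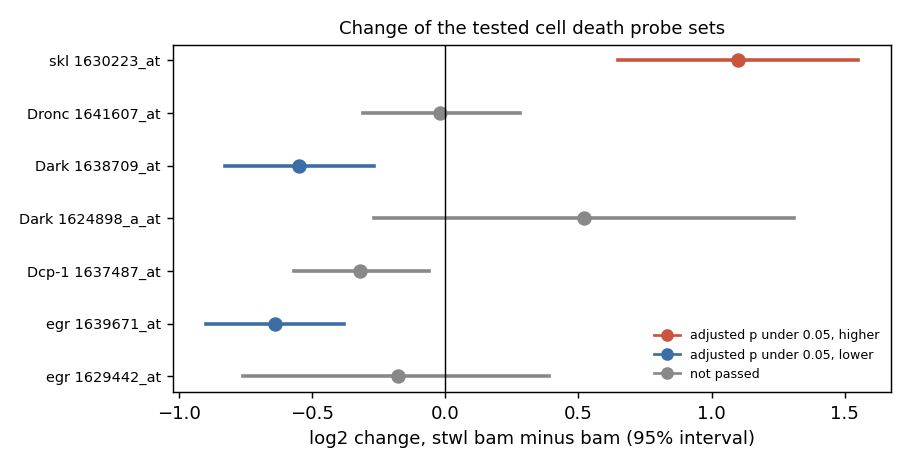
Points give the log2 change from bam to stwl bam of each tested cell death probe set and lines its 95% interval from limma. The interval of skl lies above 0, those of Dcp-1 and of the brighter Dark and egr probe sets lie below it, and Dronc is centred near 0 at -0.02. The dimmer Dark probe set lies under the background on every bam array, so its plotted change is not a measured size.

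Beyond these 10 genes, 102 genes of the wider death pathway were looked at in 11 lists, and 80 of them had a tested probe set. Of the 80, 5 rose and 20 fell in stwl bam, beside 11.1% higher and 13.0% lower among all 8764 tested genes. The median change was -0.19 on the log2 scale, against -0.04 over all tested genes. With bam replicate 1 left out 10 genes were lower, with bam replicate 3 left out 12, and with stwl bam replicate 3 left out 11. The count of higher genes was 2 without bam replicate 1 or stwl bam replicate 3, and 3 without bam replicate 2. Over all tested probe sets calls dropped in these fits too. Lower ones went from 1381 to 666, 832 and 844 without bam replicate 1, bam replicate 3 and stwl bam replicate 3. Higher ones went from 1286 to 706, 789 and 915 without bam replicate 1, stwl bam replicate 3 and bam replicate 2.

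**Figure D3:**
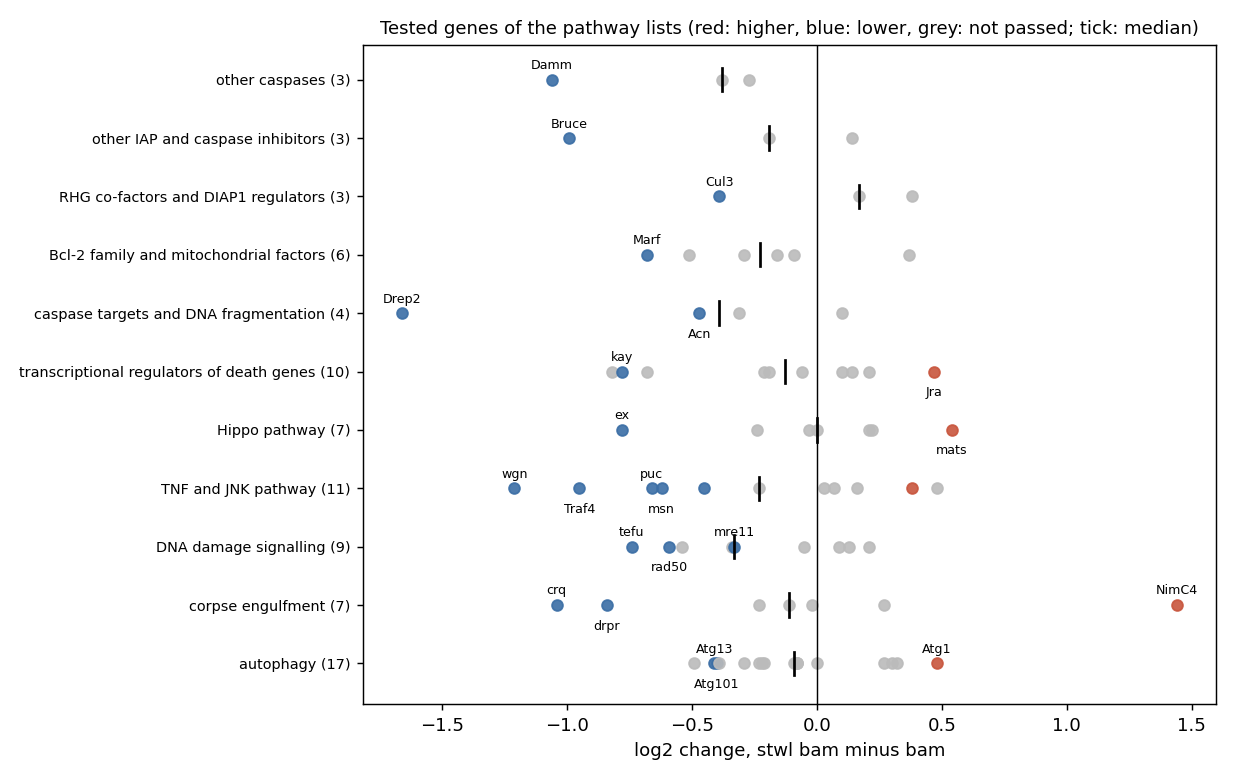
Each point is 1 tested gene of a pathway list, placed by its log2 change from bam to stwl bam, with the number of tested genes in parentheses and a tick at the list's median. The TNF and JNK list holds 5 lower genes and 1 higher, and NimC4 at 1.44 stands alone on the right.

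Some of the genes tied to egr by pathway were lower as well. In the TNF and JNK list 5 of 11 tested genes fell, 1 rose and 5 did not pass, where 13.0% of all tested genes were lower and 11.1% higher. Intensities of wgn, which encodes the Eiger receptor Wengen, were 1451.2, 1312.7 and 1651.0 in bam and 628.2, 746.4 and 566.9 in stwl bam. Every stwl bam array was far under every bam array, and the log2 level fell by 1.21 ± 0.12 (SE), with a limma adjusted p of 0.000557. The other Eiger receptor gene, grnd, lay under the background on every bam array and on 1 stwl bam array, so no size of change is given, and it did not pass (limma adjusted p = 0.447). Traf4, an adaptor that links receptors to JNK, fell by 0.95 ± 0.19, and msn, an upstream kinase of the cascade, by 0.62 ± 0.15.

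The phosphatase gene puc, which JNK signalling induces and whose product switches JNK off, had intensities of 879.3, 798.3 and 1009.0 in bam and 577.7, 551.7 and 566.4 in stwl bam. It fell by 0.66 ± 0.11 (SE), with a limma adjusted p of 0.00389. The remaining calls, named after their values were seen, were hep, the kinase that phosphorylates JNK, at -0.45, and the kinase gene Ask1 at 0.38. That of hep was lost when any one array other than stwl bam replicate 1 was left out, and with replicates 2 and 3 only. The hep call was also lost with intensities as deposited, with median centring over all probe sets and with rescaling to 1 trimmed mean. It did not hold either with no filter, with arrays below background set to it or with the replicate block. Its other tested probe set did not pass (limma adjusted p = 0.0568). The JNK gene itself, bsk, was at 0.16 with a limma adjusted p of 0.15. Its other tested probe set was at 0.52 (limma adjusted p = 0.0578) and did not pass either. On both bsk probe sets the genotypes did not overlap, as on 41.1% of all tested probe sets. Of the transcription factors that JNK activates, listed with the regulators of death genes, Jra (Jun) rose by 0.47 ± 0.11 and kay (Fos) fell by 0.78 ± 0.20. With bam replicate 1 or 3, or stwl bam replicate 3, left out, 3 of the 11 genes were lower. Calls over all tested probe sets dropped in these fits too. Ask1 did not pass in limma when bam replicate 1 or 2, or stwl bam replicate 3, was left out. The calls of wgn and puc held without any single array, and that of Traf4 was lost with replicates 2 and 3 only (limma adjusted p = 0.0604) and in the test without pooling (0.072). That of msn was lost without bam replicate 1 (limma adjusted p = 0.0817), bam replicate 3 (0.0541) or stwl bam replicate 3 (0.071). Jra lost its call without bam replicate 1 (0.0737) or stwl bam replicate 3 (0.057), and kay without any of 4 single arrays (0.0524 to 0.102).

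**Figure D4:**
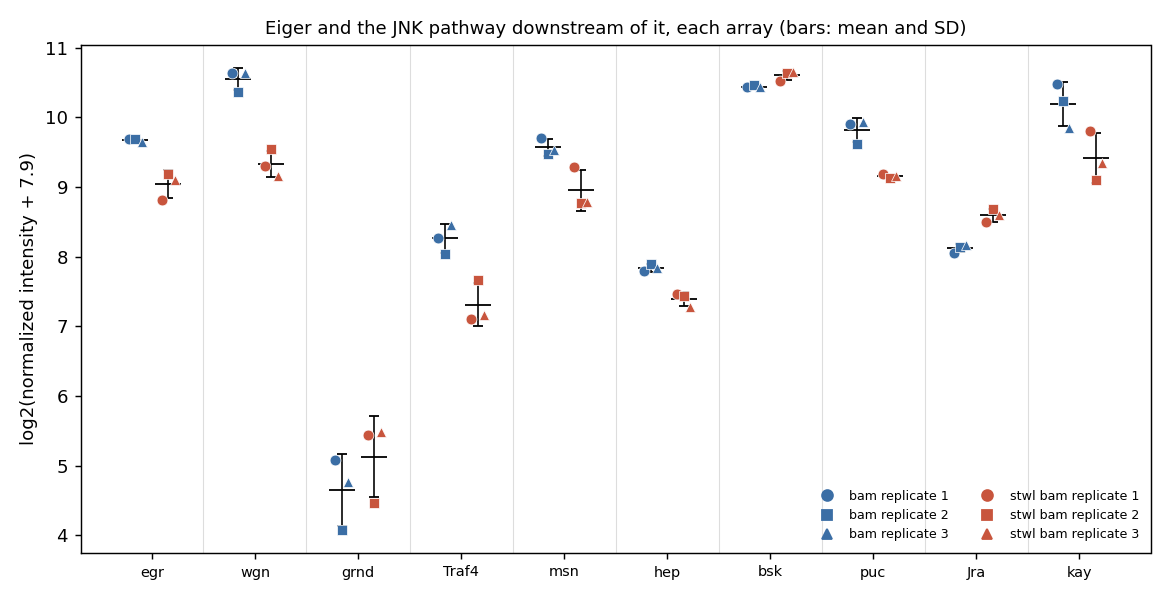
Each point is 1 array, blue for bam and red for stwl bam, for egr (brighter probe set), its receptor genes wgn and grnd and genes of the JNK cascade down to Jra and kay, on the scale log2(normalized intensity + 7.9) with mean and SD bars. The genotypes separate for egr, wgn, Traf4, msn, hep, puc and, narrowly, kay with stwl bam lower. They separate for Jra and, narrowly, bsk with stwl bam higher, while grnd overlaps.

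Genes that clear dying cells moved in both directions. Of 7 tested corpse engulfment genes, 2 fell and 1 rose while 4 did not pass, and these counts were the same without any single array. Among all tested genes 13.0% were lower and 11.1% higher. The engulfment receptor gene drpr (Draper) had intensities of 1839.4, 1693.3 and 1740.6 in bam and 1033.4, 1094.9 and 910.5 in stwl bam, and fell by 0.84 ± 0.11 (SE), with a limma adjusted p of 0.0014. The scavenger receptor gene crq (Croquemort) fell by 1.04 ± 0.13, with the same adjusted p. It is also one of the 10 haemocyte markers, which were lower as a group here. NimC4, which encodes the bridging receptor SIMU for apoptotic cells, had intensities of 215.5, 249.7 and 247.7 in bam and 1135.6, 426.1 and 639.5 in stwl bam. It rose by 1.44 ± 0.29, with a limma adjusted p of 0.00921, and stwl bam replicate 1 was the highest array. Leaving out single arrays put its change between 1.08 and 1.77, and the test without pooling ended the call (adjusted p = 0.0997). The adaptor gene ced-6, which acts behind Draper, was at -0.11.

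Among the remaining caspases, Damm fell and Dredd and Strica did not pass, at -0.27 and -0.38. Damm was dim, with intensities of 40.4, 32.1 and 34.3 in bam and 12.6, 20.0 and 12.4 in stwl bam. All stwl bam arrays and 1 bam array were below background, so that it was at least 1.56-fold lower in stwl bam, with a limma adjusted p of 0.0459. That call ended when any one array other than bam replicate 2 was left out (0.0561 to 0.171). It also ended with intensities as deposited (0.0974), rescaling to 1 trimmed mean (0.0664) and the replicate block (0.0826).

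Of the other caspase inhibitors, Bruce, a giant ubiquitin-conjugating member of the inhibitor family, fell. Its intensities were 521.9, 524.2 and 678.8 in bam and 370.7, 287.5 and 226.8 in stwl bam, and the change was -0.99 ± 0.18 (SE) with a limma adjusted p of 0.00601 that held without any single array but not in the test without pooling (0.0693). Diap2 was at -0.19 and Det, the survivin relative Deterin, at 0.14, and neither passed. Of 3 tested co-factors and regulators of Diap1, Cul3, a ubiquitin ligase scaffold, fell by 0.39 ± 0.11, a call lost without any of 4 single arrays (limma adjusted p = 0.0812 to 0.142). HtrA2 and morgue were at 0.38 and 0.17.

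Beside 13.0% lower among all tested genes, 1 of 6 genes fell in the Bcl-2 and mitochondrial list. It was Marf, the mitofusin, at -0.68 ± 0.11 (SE) with a limma adjusted p of 0.00389, which held without any single array. The Bcl-2 family genes Debcl and Buffy were at -0.29 and -0.51 and did not pass (limma adjusted p = 0.0903 and 0.0698). For each the genotypes did not overlap, as for 41.1% of all tested probe sets. Of 4 tested genes for caspase targets and DNA fragmentation, 2 fell. Drep2, of the family that includes the caspase-activated DNase and its inhibitor, fell by 1.66 ± 0.37 (limma adjusted p = 0.0147). On 1 stwl bam array it lay under the background, and with that array set to background the fall was at least 3-fold. Its call was lost without bam replicate 1 (0.067) or bam replicate 3 (0.0583). Acn, which encodes Acinus, fell by 0.47 ± 0.09 on one probe set while another was at 0.28, and the mean of both was at -0.10 with a limma adjusted p of 0.491.

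Regulators upstream of the death genes mostly did not pass. Of 10 tested transcriptional regulators 1 rose and 1 fell, the Jun and Fos genes above. Among all tested genes 11.1% were higher and 13.0% lower. On its brightest probe set br did not pass, at -0.82 (limma adjusted p = 0.226). Another br probe set of much the same brightness was called lower, at -1.17 ± 0.34 (limma adjusted p = 0.0389), with arrays that overlapped. A dim br probe set, at -0.15, did not pass. p53, which induces rpr, hid and skl after irradiation, was at 0.14 ± 0.10 (SE) with a limma adjusted p of 0.352. On its dim second probe set, below background on 2 of 3 bam arrays, it did not pass either (0.0933). foxo was at 0.21, EcR at -0.68 and yki, which raises Diap1 transcription, at -0.06. Of 7 Hippo pathway genes mats rose by 0.54 ± 0.10 and ex fell by 0.78 ± 0.16, the latter lost without bam replicate 1 (limma adjusted p = 0.0552) and the former with median centring (0.287). kibra did not pass on its brightest probe set, at 0.22 (limma adjusted p = 0.363). A dimmer kibra probe set was called lower (limma adjusted p = 0.00311). Its intensities were 84, 56.6 and 99.7 in bam and 12.8, 11.3 and 9.6 in stwl bam. The 3 stwl bam values did not reach background, so no size of change is given.

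Of 9 tested DNA damage signalling genes 3 fell and 0 rose in limma, where 13.0% of all tested genes were lower and 11.1% higher. tefu, the ATM kinase gene, fell by 0.74 ± 0.16 (SE), rad50 by 0.59 ± 0.09 and mre11, its partner in the complex that senses broken ends, by 0.33 ± 0.08. rad50 held without any single array. The tefu call was lost when bam replicate 2 or 3, or stwl bam replicate 3, was left out (limma adjusted p = 0.0535 to 0.0544), and mre11 without any of 4 single arrays (0.0662 to 0.0735). The checkpoint kinase genes lok and grp were at -0.05 and 0.09.

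Of 17 tested autophagy genes, 1 rose and 2 fell, beside 11.1% higher and 13.0% lower among all tested genes. For a list of this size these counts lie near those shares. The median change was -0.09. The kinase gene Atg1 rose by 0.48 ± 0.14 (SE), while Atg13 and Atg101, whose products act with that kinase, fell by 0.41 ± 0.11 and 0.40 ± 0.12. Each of these 3 calls was ended by 4 or 5 of the 6 omissions of a single array (limma adjusted p = 0.0565 to 0.129). Atg8a, the core autophagosome protein gene, was at -0.09 ± 0.08. Atg17 was at -0.49 ± 0.25 and did not pass (limma adjusted p = 0.202).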

How the data were processed

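The authors deposited one linear intensity for each probe set on each array. Per the submitters' processing notes they came from GCOS; its settings are not known here. Trimmed mean intensities were 219.6 on bam replicate 1 and 248.9 to 249.8 on the other arrays. Intensities were quantile-normalized without the 183 control probe sets, and log2 was taken after adding 7.9, the 25th percentile over the deposited values. This understates folds of dim genes. Tested probe sets were at or above the 40th percentile of the array in question on 3 or more of 6. Of the annotated probe sets 13647 had 1 gene, of which 13544 matched RefSeq (Release 6) by gene number, and 402 had several. A gene in a list is represented by its brightest tested probe set. Background was the 95th percentile, per array, of 44 control probe sets.

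The test was limma 3.58.1 (R 4.3.3) with lmFit and eBayes, the latter with an intensity trend, two-sided, stwl bam minus bam, with Benjamini-Hochberg adjustment over all 11477 tested probe sets. Fold bounds ("at least") set arrays below background to the lowest signal above it, or to their own value where that was higher. The fit was tested on simulated data. Members and lists were chosen with earlier results of these data known. Named are all members, up to 4 passing genes per list with the largest change (or 2 with the smallest p), the genes between hid and skl, and the 3 closest patterns of each passing member. Other genes given with a value were chosen after their values were seen. Alternatives changed the normalization, offset, filter, background, prior, array weights, replicate block, test, threshold and gene summary and left out each array. The number of arrays limits the precision. Same-numbered arrays of the genotypes did not deviate together (r of -0.05, -0.03 and 0.00), so the numbers were not taken as pairs. No sequences are printed.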

Additional observations from a re-analysis of the deposited data

How the results depend on the processing

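Of the 26 passing genes and probe sets named, 13 kept their call when any single array was left out, skl and the brighter egr probe set among them, and none changed direction under an alternative. Of the cell death probe sets 1 was lower with median centring over all probe sets, with replicates 2 and 3 only (labels of replicate 1 name the source in the singular) and with a test without pooling across probe sets, which called 0 higher (limma called 1). Leaving out single arrays gave 1 to 2 lower. Pathway genes called higher and lower numbered 1 and 12 with median centring, 2 and 12 with replicates 2 and 3 only and 3 and 10 without pooling. With no intensity trend 3 were higher, and at an adjusted p of 0.1 8 were. Leaving out single arrays gave 2 to 5 higher and 10 to 21 lower. Over all tested probe sets it gave 706 to 1308 higher and 666 to 1485 lower, against 1286 and 1381 with all arrays. Median centring over all probe sets, most of the untested ones near background, moved the median change of tested probe sets to -0.11, and with intensities as deposited it was 0.06 and 58.1% of all calls were higher, against 48.2%. With the replicate block 18 pathway genes were lower and 5 higher, and of the pathway gene calls given above those of Damm and hep were lost. The replicate numbers do not pair the arrays. The causes of these shifts were not tested. Dim probe sets limit what can be said of grim, Damm and the second Dark probe set.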
